A study of Homo sapiens with 12 samples.

Results

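This account covers 9 genes of interleukin receptors, IL13RA2, IL13RA1, IL4R, IL6R, IL6ST, OSMR, LIFR, IL1R1 and IL11RA, out of 26464 genes kept for analysis in PC3 and MG63 cells. They were taken as a named set, and each gene is represented by its annotated transcript model on chromosomes 1 to 22 or X with the most sequenced fragments over all 12 libraries. All 9 were found and all 9 passed edgeR's filter on low counts, among 15682 genes tested. PC3 is an established human prostate carcinoma line, and MG63 is an established human osteosarcoma line. Both carry the genotype label WT. Each was transfected by the lipid reagent Lipofectamine RNAiMAX, at a final 10 nM, with siControl, a non-targeting siRNA, or with siLARP4A or siLARP4B, directed at the gene in each name. Poly(A) RNA was sequenced after 72 h. The targets are RNA-binding proteins of the same family, and LARP4A appears in the tables as LARP4. There are 6 groups of 2 libraries. The design text calls the 2 libraries of a group biological replicates without saying whether they came from separate cultures, so p-values measure the spread between these libraries, which may be partly technical. The 2 lines were grown in different media with 10% serum, so a difference between the lines and a difference between the media cannot be told apart. The labels used here do not give the siRNA sequences or their number per target.

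The 9 genes encode chains of 3 kinds of cytokine receptor. IL4R pairs with IL13RA1 to form the receptor that answers to both interleukin-4 and interleukin-13 and passes the signal through JAK kinases to STAT6, while IL13RA2 binds interleukin-13 tightly, has only a short cytoplasmic tail and is best known as a decoy. IL6ST encodes gp130, the shared signalling chain of the interleukin-6 family, which works with IL6R (for interleukin-6), IL11RA (for interleukin-11), LIFR (for LIF and related ligands) or OSMR (for oncostatin M) and signals mainly through STAT3. IL1R1 is the binding chain for interleukin-1 and signals through MYD88 and NF-kB together with IL1RAP. Several of these receptors are studied in bone cells and in prostate carcinoma, and IL13RA2 is known as an antigen of tumour cells.

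IL4R, IL13RA1 and IL6ST were the receptor genes that passed the test as higher after siLARP4A in both lines. Their promoters are therefore shown, as the 250 bases before the annotated RNA start in the RefSeq table of GRCh38.p14, read 5′ to 3′ on the strand of the gene. The windows are chr16:27313724-27313973 (+) for IL4R, chrX:118727356-118727605 (+) for IL13RA1 and chr5:55994964-55995213 (-) for IL6ST. In all 3 genes the start site of that table is also the outer end of the model that was counted. The RefSeq gene record of IL4R begins 218 bases further upstream, so most of its window lies within the annotated gene. Capitals mark GC boxes, the letters GGGCGG on either strand.
IL4R: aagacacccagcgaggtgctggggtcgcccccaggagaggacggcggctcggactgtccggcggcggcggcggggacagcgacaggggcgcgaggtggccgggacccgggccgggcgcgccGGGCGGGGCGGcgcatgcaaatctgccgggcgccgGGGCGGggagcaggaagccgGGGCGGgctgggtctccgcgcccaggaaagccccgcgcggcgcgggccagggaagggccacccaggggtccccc
IL13RA1: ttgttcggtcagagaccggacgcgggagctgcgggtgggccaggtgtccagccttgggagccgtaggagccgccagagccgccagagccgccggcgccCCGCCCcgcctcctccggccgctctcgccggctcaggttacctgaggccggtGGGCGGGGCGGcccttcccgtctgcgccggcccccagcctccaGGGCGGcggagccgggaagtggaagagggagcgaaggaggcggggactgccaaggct
IL6ST: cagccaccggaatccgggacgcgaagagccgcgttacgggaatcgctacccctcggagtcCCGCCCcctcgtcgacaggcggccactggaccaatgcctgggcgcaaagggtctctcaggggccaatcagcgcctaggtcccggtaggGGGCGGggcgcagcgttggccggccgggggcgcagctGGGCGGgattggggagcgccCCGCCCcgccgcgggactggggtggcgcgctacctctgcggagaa

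Each of these 3 windows holds 4 GC boxes, and 42.6% of the 35116 promoter windows of the same length in the RefSeq table hold at least 1. Their GC content is 80.8% for IL4R, 75.6% for IL13RA1 and 73.6% for IL6ST, against a median of 58.0% over all windows. The same windows were searched on both strands for a STAT motif (TTCNNNGAA, in 6.57% of all windows), an AP-1 motif (TGANTCA, in 6.57%), a TATA box (TATAAA, in 10.7%) and a CRE (TGACGTCA, in 1.65%), and none of these occurs in the 3 windows. Of the 8 receptor genes with a window in the table, OSMR holds 3 GC boxes, IL11RA holds 2 and LIFR holds 1 STAT motif. For LIFR the RefSeq start lies 38759 bases upstream of the start of the counted model, and for IL1R1 it lies 38142 bases upstream. For IL11RA it lies 1728 bases away, within the counted model's span. Those 3 windows are therefore not the bases directly before the start of the counted models. A match is a run of letters and not a measured binding site.

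Levels are given as FPKM, fragments scaled to the library's total and to the length of the model, and changes as log2 fold changes from edgeR's quasi-likelihood F-test, with the SE and the Benjamini-Hochberg adjusted p over all tested genes. A gene is called where this adjusted p is under 0.05. The totals behind the scaling lay between 16950119 and 24864977 fragments per library, with PC3 siLARP4A replicate 1 the deepest. The 2 PC3 siLARP4A libraries also differed more from each other than those of any other group, with a chi-square of their counts of 6.04 per degree of freedom against 1.61 to 4.81. LARP4 fell from 19.2 ± 0.344 FPKM (SD, n = 2) to 2.41 ± 0.0823 in PC3 and from 8.34 ± 0.227 to 2.15 ± 0.0526 in MG63 after siLARP4A. LARP4B was at 18.4% of its siControl level in PC3 and at 30.9% in MG63 after siLARP4B. The fall of LARP4 after siLARP4A was deeper in PC3, at -1.02 ± 0.10 (PC3 minus MG63, SE, edgeR adjusted p = 1.1e-06). That of LARP4B after siLARP4B was also deeper in PC3, at -0.75 ± 0.11 (adjusted p = 4.1e-05). A difference between lines in a receptor's response therefore cannot be told apart from a difference in the depth of knockdown. LARP4 was higher after siLARP4B in MG63, by 0.43 ± 0.06 (SE; edgeR adjusted p = 8.4e-06), and not called in PC3. All 7 epithelial marker genes listed for PC3 were above 1 FPKM in its 6 libraries, with a summed level of 806 to 1049 FPKM, and 3 of them, KRT7, KRT8 and KRT18, were also above 1 FPKM in all MG63 libraries, where the sum was 64.1 to 86.8. In PC3, the prostate gene KLK3 reached at most 0.0442 FPKM. In MG63, 6 of 8 mesenchymal or osteoblast markers were above 1 FPKM in all 6 libraries, with a sum of 2707 to 3423 FPKM, and RUNX2 and ALPL were not. In PC3, 5 of the 8 were above 1 FPKM in all libraries, with a sum of 14.4 to 22.2. Of the leukocyte markers, CD3E was at 0 in all 12 libraries, and CD68 was above 1 FPKM in every library. The summed level of the 6 leukocyte markers measured was 13.8 to 22.1 FPKM in PC3 and 15.3 to 32.6 in MG63, mostly from CD68, which fell by 0.58 after siLARP4A and by 1.01 after siLARP4B in MG63 on the log2 scale, and its part in the receptor changes was not tested. Of the 3 endothelial markers, PECAM1 and VWF stayed below 1 FPKM in all 12 libraries. CDH5 stood at 3.66 and 3.15 FPKM in MG63 siControl, 6.47 and 5.60 after siLARP4A (0.83 ± 0.12, edgeR adjusted p = 1.4e-05) and 2.43 and 1.96 after siLARP4B (-0.61 ± 0.13, adjusted p = 9.4e-04), with at most 4 fragments per PC3 library. It thus moved in MG63 in the same directions as IL4R and IL13RA1, and its part was not tested.

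Before any knockdown the lines differed in every receptor. In siControl cells, 9 of 9 receptor genes were called between PC3 and MG63, where 82% of all tested genes were called (41.3% higher in PC3, 40.7% lower). The order in PC3 was IL13RA2 (29.5 ± 3.89 FPKM, SD, n = 2), IL13RA1 (23.8 ± 0.209), LIFR (14.4 ± 0.933), IL6R (10.1 ± 0.658), OSMR (8.53 ± 0.227), IL6ST (6.76 ± 0.175), IL4R (3.51 ± 0.181), IL11RA (1.76 ± 0.162) and IL1R1 (0.236 ± 0.0762). No neighbours in that order overlapped in their library values. In MG63 the order was IL4R (31.6 ± 0.790), IL6ST (30.3 ± 0.405), IL6R (16.2 ± 0.898), OSMR (15.8 ± 0.201), IL11RA (14.6 ± 0.974), IL13RA1 (11.7 ± 0.103), IL1R1 (9.03 ± 0.497), IL13RA2 (6.22 ± 0.617) and LIFR (1.93 ± 0.00107). There, IL6R and OSMR overlapped between libraries, so their order is not fixed by these data. The order of IL4R and IL6ST depends on the model counted. The IL6ST model used is its longest, with 9906 bases. In the same libraries an IL6ST model of 8815 bases stood at 33.3 and 34.1 FPKM, above the IL4R model used.

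PC3 thus held more of the decoy chain IL13RA2, of its signalling relative IL13RA1 and of LIFR, and MG63 held more of the other 6 receptor transcripts. IL13RA2 was 4.16-fold higher in PC3 (log2 difference 2.06 ± 0.11, SE), LIFR 6.59-fold (2.72 ± 0.11) and IL13RA1 1.78-fold (0.84 ± 0.06). IL4R was 10.2-fold lower in PC3 than in MG63 (-3.35 ± 0.08), IL11RA 9.41-fold lower (-3.23 ± 0.14) and IL6ST 5.10-fold lower (-2.35 ± 0.07). IL1R1 showed the largest difference of the 9, 43.5-fold lower in PC3 (-5.44 ± 0.15), where it rests on 18 to 36 fragments per library in all 6 PC3 libraries. The edgeR adjusted p of these 9 differences lay between 8.5e-21 and 1.5e-11.

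**Figure D1:**
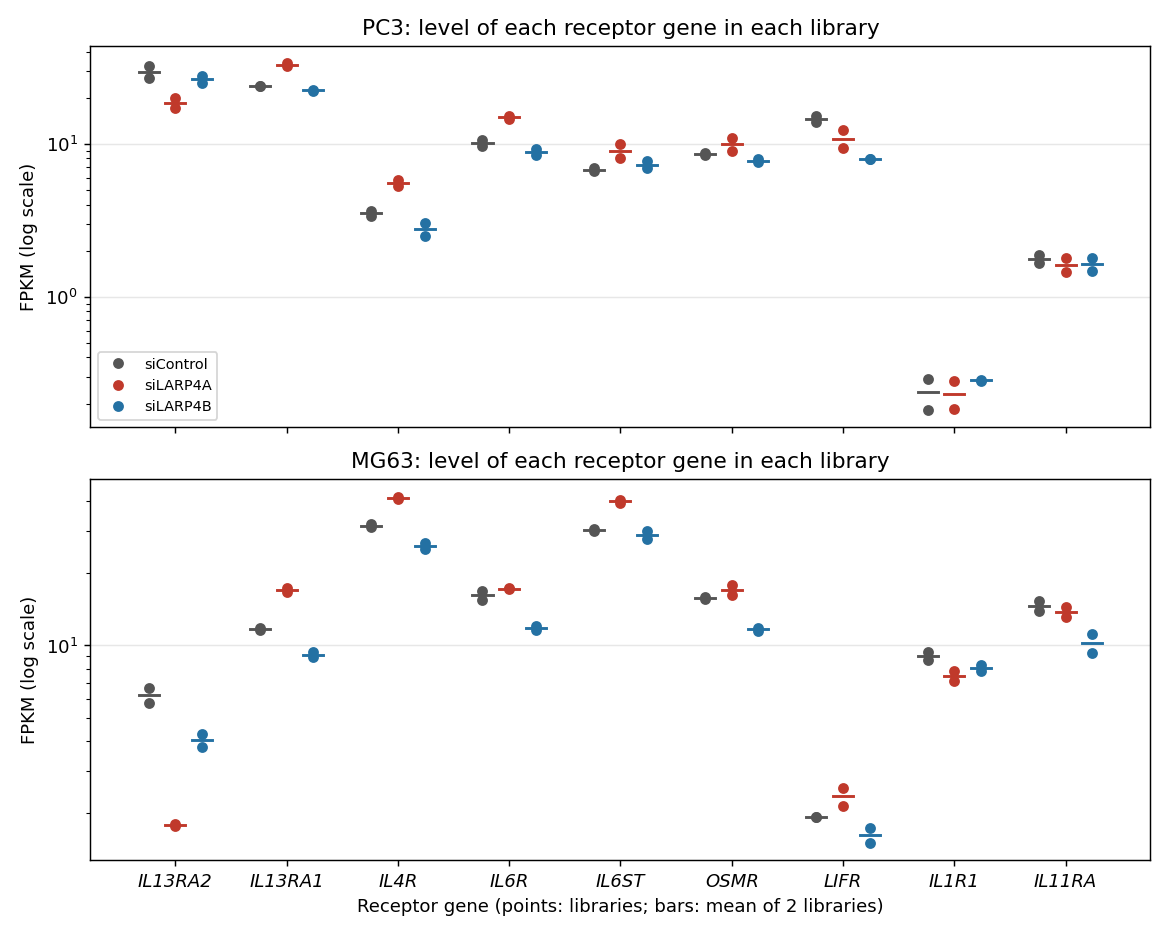
Level of each receptor gene in FPKM on a log axis, PC3 above and MG63 below; each point is 1 library, each bar the mean of 2 libraries, and colours give the siRNA. IL13RA2 is lowest in the siLARP4A libraries of both lines, while IL13RA1 and IL4R are highest there.

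IL13RA2 fell after siLARP4A in both lines. In MG63 its level was 5.78 and 6.65 FPKM in siControl, 1.80 and 1.77 in siLARP4A and 3.78 and 4.28 in siLARP4B. The 3 groups did not overlap, with siLARP4A lowest and siLARP4B between. The log2 change in MG63 was -1.80 ± 0.18 (SE) after siLARP4A (edgeR adjusted p = 1.7e-07), a level of 28.7% of siControl. After siLARP4B it was -0.61 ± 0.15 (adjusted p = 3.3e-03), and this call was lost without MG63 siControl replicate 2 (-0.51, adjusted p = 0.058). These values rest on 140 and 170 fragments in siControl, 42 and 44 in siLARP4A and 99 and 108 in siLARP4B. In a bulk sample, fewer cells with a transcript and less of it per cell cannot be told apart.

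In PC3, IL13RA2 stood at 26.7 and 32.2 FPKM in siControl, 19.8 and 17.2 in siLARP4A and 27.7 and 24.9 in siLARP4B. Both siLARP4A libraries lay below the other 4, and the siLARP4B libraries overlapped those of siControl. The log2 change was -0.65 ± 0.09 after siLARP4A (edgeR adjusted p = 1.1e-05). After siLARP4B it was -0.17 ± 0.09 with a 95% interval of -0.36 to 0.02 (adjusted p = 0.15), and it was called only when PC3 siControl replicate 1 was left out (-0.29, adjusted p = 0.033) or when the filter on low counts was dropped (-0.21, adjusted p = 0.045). The effect of siLARP4A on IL13RA2 differed between the lines, by 1.15 ± 0.21 (PC3 minus MG63, interaction term, edgeR adjusted p = 9.7e-04). The fall was thus the smaller in PC3. The knockdown of LARP4 was the deeper there, and its part in this difference was not tested.

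IL13RA1, which pairs with IL4R in the signalling receptor, moved the other way after siLARP4A. In PC3 it stood at 23.6 and 23.9 FPKM in siControl, 33.5 and 32.2 in siLARP4A and 22.2 and 22.4 in siLARP4B. In MG63 it stood at 11.8 and 11.7 in siControl, 16.7 and 17.3 in siLARP4A and 9.36 and 8.93 in siLARP4B. In both lines the siLARP4A libraries were highest and the siLARP4B libraries lowest, with no overlap. The rise after siLARP4A was 0.48 ± 0.05 (edgeR adjusted p = 2.1e-07) in PC3 and 0.54 ± 0.06 (4.3e-07) in MG63, and the difference between the lines was -0.05 (95% interval -0.21 to 0.11, adjusted p = 0.76).

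IL13RA1 after siLARP4B fell by 0.34 on the log2 scale in MG63 (SE 0.06, edgeR adjusted p = 1.7e-04). In PC3 the change was -0.10 ± 0.05 (adjusted p = 0.15), and it was called, at -0.15 and with an adjusted p of 0.029 to 0.042, when any 1 of the 6 MG63 libraries was left out of the common fit. The siLARP4B effect differed between the lines by 0.24 ± 0.08 (PC3 minus MG63, adjusted p = 0.031). This call is fragile: it was lost when any 1 of 10 of the 12 libraries was left out, all but the 2 PC3 siLARP4A libraries, with values from 0.16 to 0.25 over all 12. It was also lost with DESeq2 size factors (0.22), in DESeq2 (0.22), with no filter (0.18) and with the deduplicated table of PC3 siControl replicate 2 (0.20).

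IL4R, the chain shared by both interleukin-4 receptors, rose after siLARP4A and fell after siLARP4B in both lines. In MG63 it stood at 32.1 and 31.0 FPKM in siControl, 41.7 and 40.8 in siLARP4A and 26.7 and 25.1 in siLARP4B. In PC3, at a far lower level, it stood at 3.38 and 3.64 in siControl, 5.25 and 5.76 in siLARP4A and 3.01 and 2.51 in siLARP4B. The 3 groups did not overlap in either line. The rise after siLARP4A was 0.39 ± 0.06 in MG63 (edgeR adjusted p = 3.2e-05) and 0.66 ± 0.09 in PC3 (4.9e-06), and the fall after siLARP4B was -0.27 ± 0.06 in MG63 (1.4e-03) and -0.34 ± 0.10 in PC3 (9.4e-03). The PC3 fall lost its call without siControl replicate 2 (-0.31, adjusted p = 0.071) and without siLARP4B replicate 2 (-0.23, adjusted p = 0.14). Neither effect was called as different between the lines, with differences of 0.28 ± 0.11 for siLARP4A (95% interval 0.05 to 0.50, adjusted p = 0.11) and -0.08 ± 0.12 for siLARP4B (-0.33 to 0.17, adjusted p = 0.69).

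The level of the decoy chain relative to the signalling chain, IL13RA2 FPKM divided by IL13RA1 FPKM, combines the opposite movements after siLARP4A. In PC3 the ratio was 1.13 and 1.35 in siControl, 0.590 and 0.535 in siLARP4A and 1.25 and 1.11 in siLARP4B. In MG63 it was 0.490 and 0.571 in siControl, 0.108 and 0.102 in siLARP4A and 0.403 and 0.479 in siLARP4B. The siLARP4A libraries lay below all others of their line, at a mean of 0.563 ± 0.0390 in PC3 and 0.105 ± 0.00383 in MG63 (SD, n = 2), against 1.24 ± 0.153 and 0.531 ± 0.0572 in siControl. The siLARP4B means, 1.18 ± 0.0994 and 0.441 ± 0.0537, lay within the spread of siControl in PC3 and below both siControl libraries in MG63. The ratio is a description with no test, since both of its terms are tested above.

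**Figure D2:**
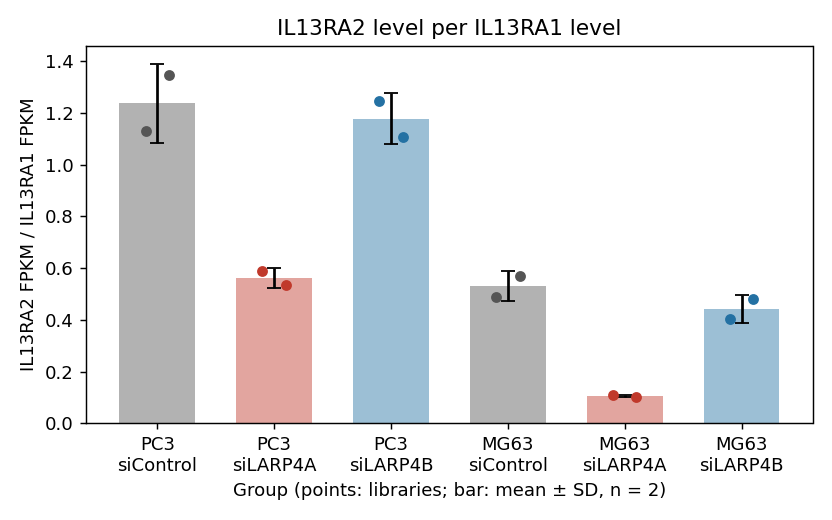
IL13RA2 FPKM divided by IL13RA1 FPKM in the 6 groups on a linear axis from 0; points are libraries, bars the mean and error bars the SD of 2 libraries. The ratio is lowest after siLARP4A, at 0.563 in PC3 and 0.105 in MG63.

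IL6ST, the shared gp130 chain, rose after siLARP4A in both lines and was not called after siLARP4B in either. In MG63 it stood at 30.0 and 30.6 FPKM in siControl, 40.5 and 39.2 in siLARP4A and 27.7 and 29.9 in siLARP4B. In PC3 it stood at 6.63 and 6.88 in siControl, 9.88 and 8.10 in siLARP4A and 6.93 and 7.65 in siLARP4B. Both siLARP4A libraries were the highest of their line. The rise was 0.40 ± 0.06 in MG63 (edgeR adjusted p = 6.9e-05) and 0.43 ± 0.07 in PC3 (6.6e-05), and it was 0.28 and still called in PC3 without siLARP4A replicate 1. After siLARP4B the changes were 0.10 in PC3 (95% interval -0.05 to 0.26, adjusted p = 0.28) and -0.06 in MG63 (-0.19 to 0.08, adjusted p = 0.56).

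IL6R, the binding chain for interleukin-6, rose after siLARP4A in PC3, from 9.68 and 10.6 FPKM to 15.2 and 14.6. In MG63 the same comparison gave 15.5 and 16.8 in siControl against 17.2 and 17.3, close together though not overlapping. The change was 0.57 ± 0.06 in PC3 (edgeR adjusted p = 2.1e-07) and 0.09 ± 0.06 in MG63 (95% interval -0.03 to 0.22, adjusted p = 0.28), and the difference between the lines was called, at 0.48 ± 0.09 (adjusted p = 7.5e-04). After siLARP4B, IL6R stood at 9.20 and 8.48 FPKM in PC3 and 12.1 and 11.6 in MG63, below siControl in both lines. That fall was -0.43 ± 0.06 in MG63 (edgeR adjusted p = 9.9e-06) and -0.20 ± 0.06 in PC3 (0.015), and the PC3 call was lost without siControl replicate 2 or siLARP4B replicate 2 (both -0.15, adjusted p = 0.16).

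LIFR, the chain for LIF, was the receptor with the deepest fall after siLARP4B in PC3. It stood at 13.8 and 15.1 FPKM in siControl, 12.3 and 9.31 in siLARP4A and 7.96 and 7.88 in siLARP4B. The siLARP4B libraries were lowest and nearly equal, and the siLARP4A libraries lay between and far apart. The change in PC3 was -0.87 ± 0.09 after siLARP4B (edgeR adjusted p = 6.9e-08) and -0.40 ± 0.09 after siLARP4A (1.1e-03). The latter was -0.62 without siLARP4A replicate 1 and -0.22 without siLARP4A replicate 2, and it stayed called in both cases.

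In MG63, LIFR was low, at 1.93 and 1.93 FPKM in siControl, 2.55 and 2.14 in siLARP4A and 1.504 and 1.743 in siLARP4B. The siLARP4A libraries were above siControl and the siLARP4B libraries below, with no overlap. The change was 0.28 ± 0.12 after siLARP4A (edgeR adjusted p = 0.099) and -0.23 ± 0.13 after siLARP4B (adjusted p = 0.19). The former was called when either PC3 siLARP4A library was left out (adjusted p = 0.016 in both), with no filter on low counts (0.30, adjusted p = 4.3e-03) and in a fit of MG63 alone (0.29, adjusted p = 0.025). Both effects on LIFR differed between the lines, by -0.68 ± 0.15 for siLARP4A (adjusted p = 4.9e-03) and -0.64 ± 0.16 for siLARP4B (adjusted p = 4.5e-03).

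OSMR, the oncostatin M chain, fell after siLARP4B in MG63, from 16.0 and 15.7 FPKM to 11.5 and 11.8. In PC3 the same groups stood at 8.37 and 8.69 against 7.95 and 7.55. The change was -0.42 ± 0.07 in MG63 (edgeR adjusted p = 8.4e-05) and -0.14 ± 0.08 in PC3 (95% interval -0.31 to 0.02, adjusted p = 0.15). The latter passed the threshold without MG63 siLARP4B replicate 1 or 2 (both -0.19, adjusted p = 0.0498 and 0.0490) and with no filter (-0.19, adjusted p = 0.035). After siLARP4A, OSMR stood at 10.8 and 9.02 FPKM in PC3 and 17.9 and 16.2 in MG63.

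OSMR was called as higher after siLARP4A in PC3, at 0.24 ± 0.08 (edgeR adjusted p = 0.015), but on narrow grounds. The call was lost without PC3 siControl replicate 1 (0.22, adjusted p = 0.093), siControl replicate 2 (0.26, adjusted p = 0.053) or siLARP4A replicate 1 (0.09, adjusted p = 0.38), and the value was 0.36 without siLARP4A replicate 2. It was also lost in limma on log2(FPKM + 1) (0.19, adjusted p = 0.081), in a fit of PC3 alone (0.21, adjusted p = 0.061) and with the deduplicated table of siControl replicate 2 (0.20, adjusted p = 0.052). In MG63 the change was 0.11 ± 0.07 (95% interval -0.04 to 0.25, adjusted p = 0.28).

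IL11RA, the binding chain for interleukin-11, changed in 1 of the 4 comparisons with siControl. In MG63 it stood at 15.3 and 13.9 FPKM in siControl, 14.4 and 13.1 in siLARP4A and 11.1 and 9.27 in siLARP4B. The siLARP4B libraries were lowest, and siLARP4A overlapped siControl. The fall after siLARP4B was -0.50 ± 0.10 (edgeR adjusted p = 7.2e-04), and the change after siLARP4A was -0.09 (95% interval -0.30 to 0.12, adjusted p = 0.59). In PC3, IL11RA lay between 1.44 and 1.88 FPKM in all 6 libraries, on 43 to 77 fragments each. The intervals of both changes there (-0.50 to 0.34 and -0.54 to 0.33) just include a fall of the size seen in MG63 after siLARP4B.

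IL1R1, the interleukin-1 chain, was called as lower after siLARP4A in MG63. It stood at 9.38 and 8.68 FPKM in siControl, 7.14 and 7.83 in siLARP4A and 8.33 and 7.81 in siLARP4B. Both knockdown groups lay below siControl and overlapped each other. The change after siLARP4A was -0.27 ± 0.08 (edgeR adjusted p = 0.019), and the call was lost without MG63 siControl replicate 1 (-0.20, adjusted p = 0.22), without MG63 siLARP4A replicate 1 (-0.19, adjusted p = 0.23) and in DESeq2 (-0.26, adjusted p = 0.080). After siLARP4B it was -0.14 ± 0.08 (adjusted p = 0.19). In PC3, IL1R1 lay between 0.182 and 0.290 FPKM, and the intervals of the changes, -0.58 to 0.64 and -0.35 to 0.88, show that small changes were not detectable at this depth.

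**Figure D3:**
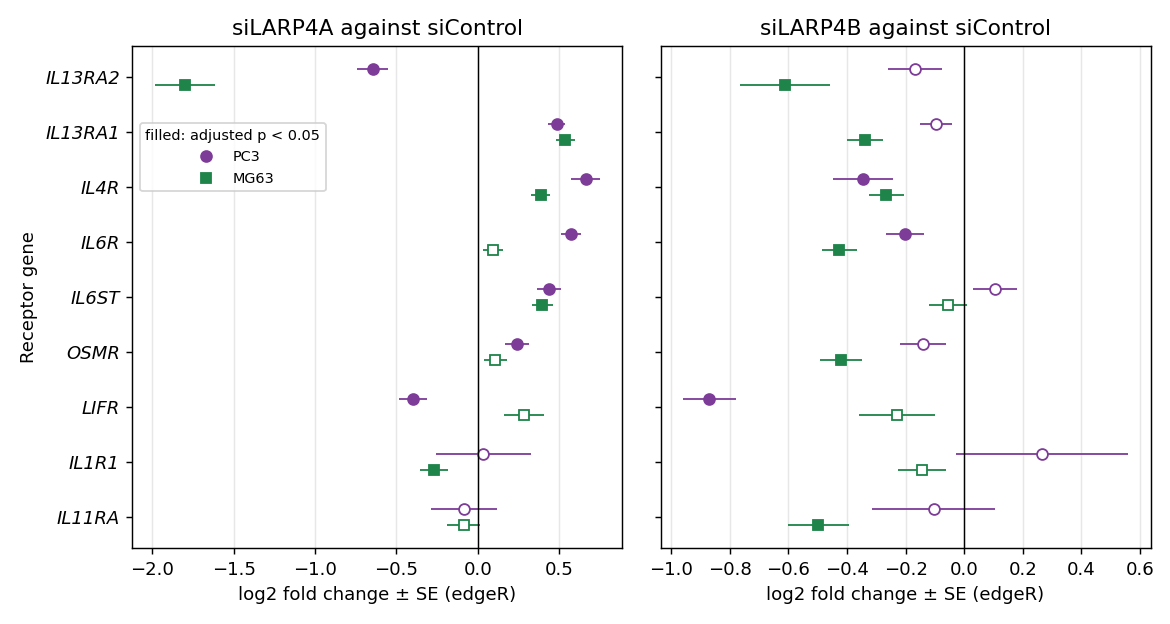
log2 fold change of each receptor gene after siLARP4A (left) and siLARP4B (right) against siControl, with the SE from edgeR as bars; circles are PC3, squares MG63, and filled symbols have an adjusted p under 0.05. After siLARP4A, IL13RA2 lies far left of 0 in MG63 (-1.80) and IL13RA1, IL4R and IL6ST lie right of 0 in both lines; after siLARP4B every filled symbol lies left of 0.

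By count, siLARP4A raised 5 and lowered 2 of the 9 receptors in PC3, where 36.4% of all tested genes were called (19.5% higher, 16.9% lower). In MG63 it raised 3 and lowered 2, where 26.8% were called (13.3% higher, 13.5% lower). After siLARP4B, 0 of 9 rose and 3 fell in PC3, where 45.7% were called (24.8% higher, 20.9% lower). In MG63, 0 rose and 6 fell, where 34.9% were called (18% higher, 16.9% lower). The counts of 0 higher come from edgeR and were also 0 at an unadjusted p under 0.05 and in DESeq2. The median log2 change of the 9 was 0.24 and 0.11 after siLARP4A in PC3 and MG63, beside 0.03 and -0.00 over all tested genes, and -0.14 and -0.34 after siLARP4B, beside 0.04 and -0.00. The PC3 count after siLARP4B was 1 without PC3 siControl replicate 2 or PC3 siLARP4B replicate 2 and 5 without MG63 siLARP4B replicate 1 or 2.

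Set directly against each other, the knockdowns differed in most receptors. These comparisons use the same treated libraries as above and add no separate evidence. In PC3, 6 receptors were higher after siLARP4A than after siLARP4B and 1 was lower, where 54.1% of all tested genes were called (26.3% higher, 27.8% lower). In MG63, 7 were higher and 1 lower, where 43.8% were called (21.6% higher, 22.2% lower). IL13RA2 was the lower one in both lines, at -0.48 ± 0.10 in PC3 (edgeR adjusted p = 1.8e-04) and -1.19 ± 0.20 in MG63 (4.3e-05).

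The receptors higher after siLARP4A than after siLARP4B in both lines were IL4R (1.01 in PC3 and 0.65 in MG63), IL13RA1 (0.58 and 0.88), IL6R (0.77 and 0.52), LIFR (0.47 and 0.51), OSMR (0.38 and 0.53) and IL6ST (0.33 and 0.45). Without PC3 siLARP4A replicate 1 the PC3 values were lower, at 0.26 for LIFR, 0.24 for OSMR and 0.18 for IL6ST, and still called. The MG63 call of LIFR was lost without MG63 siLARP4A replicate 1 (0.39, edgeR adjusted p = 0.05004). IL11RA was called in MG63 (0.41, adjusted p = 2.9e-03), and not without MG63 siLARP4B replicate 2 (0.30, adjusted p = 0.058). IL1R1 was not called in either line.

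The size of the effect differed between lines for 3 receptors after siLARP4A, IL13RA2 and IL6R (less negative or more positive in PC3) and LIFR (more negative in PC3), where 11.2% of all tested genes showed such a difference (5.74% higher, 5.46% lower). After siLARP4B it differed for 2, IL13RA1 and LIFR, where 26.8% did (12.4% higher, 14.4% lower). That of IL13RA2 after siLARP4B, 0.44 ± 0.18 (edgeR adjusted p = 0.071), was called only without PC3 siControl replicate 2 (0.57, adjusted p = 0.027), and the differences of IL6R and OSMR were called without either PC3 siLARP4A library.

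The ligands of these receptors were mostly low in both lines. Of 20 listed ligand genes 12 were tested. IL4, IL13 and OSM were at no more than 2 fragments in any library. IL6 had 15 to 31 fragments per library in PC3 and at most 1 in MG63. LIF was the most abundant of the gp130 ligands in PC3, at 20.7 to 26.1 FPKM.

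LIF rose in MG63 after both siRNAs, from 9.68 and 8.35 FPKM to 15.4 and 14.3 after siLARP4A and 13.4 and 15.1 after siLARP4B (log2 changes 0.72 ± 0.10 and 0.68 ± 0.10, edgeR adjusted p = 7.5e-06 and 1.1e-05). The 2 comparisons share the siControl libraries. IL11 rose in PC3 after siLARP4A, from 2.69 and 2.27 FPKM to 5.06 and 4.77 (1.01 ± 0.15, adjusted p = 1.6e-05). IL1B in MG63 was 5.19 and 4.25 FPKM in siControl, 6.67 and 6.60 after siLARP4A (0.49 ± 0.13, adjusted p = 7.1e-03) and 2.04 and 2.72 after siLARP4B (-0.97 ± 0.16, adjusted p = 5.0e-05). CLCF1 fell after siLARP4B in MG63 (-0.40 ± 0.13, adjusted p = 0.022), and CNTF passed no test.

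Counted over the list, 1 of the 12 tested ligands rose and 0 fell after siLARP4A in PC3 (19.5% and 16.9% of all tested genes), and 2 rose and 0 fell in MG63 (13.3% and 13.5%). After siLARP4B it was 0 and 0 in PC3 (24.8% and 20.9%) and 1 and 3 in MG63 (18% and 16.9%). The third gene to fall there was IL1RN, the interleukin-1 receptor antagonist, on 15 and 18 fragments in siControl against 4 and 3 (-2.23 ± 0.60, edgeR adjusted p = 5.7e-03).

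Among 25 tested genes of 42 listed for other cytokine receptor chains, 10 rose and 1 fell after siLARP4A in PC3 (19.5% and 16.9% of all tested genes), and 5 rose and 0 fell in MG63 (13.3% and 13.5%). After siLARP4B, 7 rose and 5 fell in PC3 (24.8% and 20.9%), and 4 rose and 6 fell in MG63 (18% and 16.9%), which is near the share of all genes. The median changes of the members with at least 10 fragments were 0.28, 0.18, 0.12 and -0.05 in that order. IL31RA and IL27RA, chains that pair with OSMR and with gp130, rose after siLARP4A in both lines. IL31RA went from 0.608 and 0.672 FPKM to 1.89 and 1.88 in MG63 (1.55 ± 0.20, edgeR adjusted p = 5.5e-06) and rose by 0.89 ± 0.15 in PC3 (8.3e-05). IL27RA went from 4.53 and 4.76 to 8.09 and 8.60 in MG63 (0.85 ± 0.09, adjusted p = 5.0e-07) and rose by 0.62 ± 0.11 in PC3 (7.4e-05), and it fell after siLARP4B in MG63 (-0.83 ± 0.11, adjusted p = 3.9e-06).

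IL1RAP, the partner of IL1R1, rose after siLARP4A in PC3 (0.64 ± 0.09, edgeR adjusted p = 7.3e-06) and after siLARP4B in MG63 (0.71 ± 0.08, adjusted p = 8.7e-07). Of the further chains of the interleukin-1 family, IL1RL1 (1.38) and IL18R1 (1.37) rose after siLARP4A in PC3, on at most 82 fragments per library, and SIGIRR, an inhibitory member, rose after siLARP4B in PC3 (1.16). IFNLR1 (-1.95) and IL17RE (-1.22) fell after siLARP4B in MG63, from 18 and 13 to 5 and 3 fragments and from 44 and 36 to 21 and 14.

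The transcription factors that these receptors use were present to different extents. STAT6, the factor of the interleukin-4 receptor, was at 15.0 to 17.3 FPKM in PC3 and did not pass a test there. In MG63 it stood at 19.1 and 18.4 in siControl, 19.3 and 18.8 in siLARP4A and 10.8 and 9.07 in siLARP4B, where it fell (-0.90 ± 0.07, edgeR adjusted p = 4.0e-09). STAT3, the main factor of gp130, was at 32.2 to 39.0 FPKM in MG63 and had 0 or 1 fragments in each PC3 library. STAT5A and STAT5B had 0 fragments in all 6 PC3 libraries, which allows up to 3 fragments in each, against 143 to 286 and 725 to 807 fragments in MG63.

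**Figure D4:**
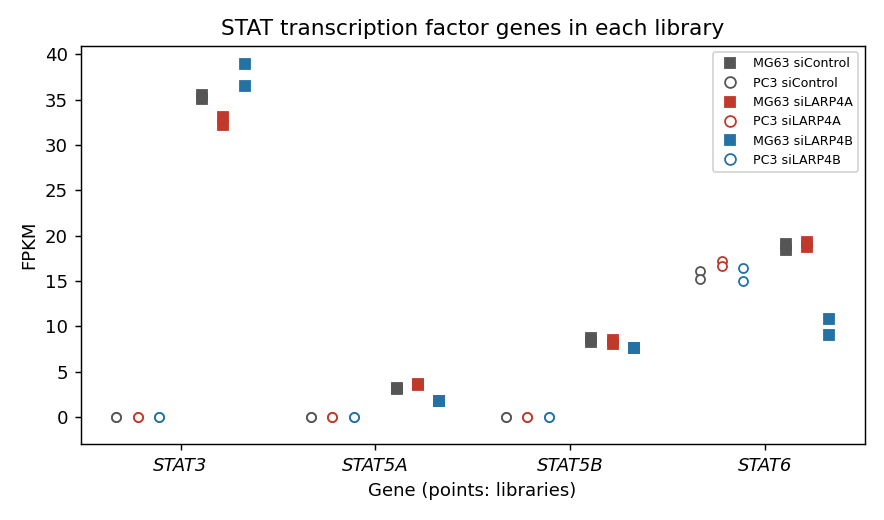
Level in FPKM of 4 STAT genes in every library; open circles are PC3, filled squares MG63, and colours give the siRNA. STAT3, STAT5A and STAT5B lie at or next to 0 in PC3, and in MG63 STAT6 is lowest after siLARP4B.

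Of the 16 JAK-STAT signalling genes, all tested, 3 rose and 4 fell after siLARP4A in PC3 (19.5% and 16.9% of all tested genes). In MG63 it was 2 and 2 (13.3% and 13.5%), near the share of all genes. In PC3 only 13 of the 16 had at least 10 fragments over the compared libraries. STAT3, STAT5A and STAT5B, at 0 or 1 fragments per PC3 library, could not be called there. After siLARP4B it was 6 and 1 in PC3 (24.8% and 20.9%) and 6 and 3 in MG63 (18% and 16.9%). PTPN11, a phosphatase that acts below gp130, fell after siLARP4A in both lines (-0.93 ± 0.06 in PC3 and -0.54 ± 0.06 in MG63, edgeR adjusted p = 1.2e-10 and 1.2e-06). Of 14 tested JAK-STAT inhibitors, 8 rose and 3 fell after siLARP4A in PC3 (19.5% and 16.9% of all tested genes) and 2 and 2 in MG63 (13.3% and 13.5%). After siLARP4B it was 5 and 2 in PC3 (24.8% and 20.9%) and 2 and 3 in MG63 (18% and 16.9%). SOCS3, which binds gp130 and blocks it, rose after siLARP4A in PC3 (0.70 ± 0.07, adjusted p = 1.3e-07) and MG63 (0.34 ± 0.09, adjusted p = 4.9e-03).

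The genes listed as targets of gp130 and STAT3 included 8 higher and 2 lower of 15 after siLARP4A in PC3 (19.5% and 16.9% of all tested genes), and 6 higher and 1 lower in MG63 (13.3% and 13.5%). After siLARP4B there were 5 higher and 1 lower in PC3 (24.8% and 20.9%), and 1 higher and 6 lower in MG63 (18% and 16.9%). The median changes of members with at least 10 fragments were 0.24, 0.22, 0.07 and -0.14. FGB rose after siLARP4A in PC3 (1.13) on at most 46 fragments.

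Of 15 listed targets of interleukin-4, interleukin-13 and STAT6, 7 were tested. After siLARP4A 3 rose and 2 fell in PC3 (19.5% and 16.9% of all tested genes) and 0 rose and 2 fell in MG63 (13.3% and 13.5%). After siLARP4B 1 rose and 0 fell in PC3 (24.8% and 20.9%) and 2 rose and 1 fell in MG63 (18% and 16.9%). POSTN, a matrix protein, fell after siLARP4A in PC3 from 11 and 9 to 3 and 1 fragments, and TGM2, a transglutaminase, rose there (1.11 ± 0.13). Both were far more abundant in MG63. There POSTN averaged 31.5 FPKM in siControl, 27.6 after siLARP4A and 50.4 after siLARP4B, and TGM2 averaged 48.7, 42.4 and 77.8. The list for interleukin-1 and NF-kB, with 14 of 15 tested, had 3 higher and 2 lower after siLARP4A in PC3 (19.5% and 16.9% of all tested genes) and 7 and 1 in MG63 (13.3% and 13.5%). After siLARP4B it had 8 and 0 in PC3 (24.8% and 20.9%) and 3 and 2 in MG63 (18% and 16.9%). The changes of at least 1 on the log2 scale in it were those of ICAM1 (1.15 after siLARP4A in MG63, 1.17 after siLARP4B in PC3), BIRC3 (1.77 after siLARP4A in MG63), CXCL1 (-1.04 after siLARP4A in PC3) and MMP3 (-2.22 and -1.53 in MG63).

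The 15 genes of the interleukin-1 receptor signal had 6 higher and 1 lower after siLARP4A in PC3 (19.5% and 16.9% of all tested genes) and 3 and 1 in MG63 (13.3% and 13.5%). After siLARP4B the counts were 6 and 3 in PC3 (24.8% and 20.9%) and 4 and 3 in MG63 (18% and 16.9%). The adaptor MYD88 was lower after siLARP4A (-0.70 in PC3, -0.69 in MG63) and higher after siLARP4B (0.31 and 0.57) in both lines, all 4 called. Of 9 tested proteases and regulators of receptor shedding, 2 rose and 0 fell after siLARP4A in PC3 (19.5% and 16.9% of all tested genes) and 0 and 1 in MG63 (13.3% and 13.5%). After siLARP4B the counts were 3 and 3 in PC3 (24.8% and 20.9%) and 1 and 2 in MG63 (18% and 16.9%). ADAM10, which cleaves several cytokine receptors from the cell surface, fell after siLARP4B in both lines, from 6.27 and 6.30 FPKM to 2.92 and 2.84 in PC3 (-1.13 ± 0.06, edgeR adjusted p = 1.1e-12) and from 18.7 and 19.4 to 10.98 and 11.25 in MG63 (-0.76 ± 0.05, adjusted p = 1.3e-10). SOCS2 rose after siLARP4B in PC3 by 1.14.

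Each receptor was counted from 1 model, and the choice differed in weight between genes. IL13RA2 (X, 115003982 to 115017616, - strand) and IL13RA1 (X, 118727606 to 118794533, + strand) have 1 model each in the tables. IL4R (16, 27313974 to 27364778, +) has 4, IL6ST (5, 55935097 to 55994963, -) has 10, IL6R (1, 154405343 to 154469450, +) has 9, OSMR (5, 38846012 to 38935641, +) has 6, LIFR (5, 38474668 to 38556646, -) has 4, IL1R1 (2, 102142746 to 102179874, +) has 10 and IL11RA (9, 34652185 to 34661901, +) has 2. The coordinates are the tables' own, for the build hg38 named in the submitters' processing notes. Shorter models that end inside the gene exist for 3 receptors. Fragments of the shortest came to 17.9% to 22.4% of those of the main model for IL6R and 23.6% to 29.6% for OSMR. For IL1R1 in MG63 they came to 8.75% to 15.1%. OSMR has more than 1 such model, and that of 2218 bases held 5585 fragments over 12 libraries against 14842. IL6R overlaps the antisense gene IL6R-AS1, with 63 fragments over 12 libraries against 17597, and IL11RA overlaps CCL27, with 16 against 2799, so reads of a partner that could not be told apart without strand are few beside those of the receptors.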

How the data were processed

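The authors deposited 1 table per library. It lists 86394 transcript models under 28306 symbols, each with its fragment count, its FPM and its FPKM value per the file headers. In the deposited FPM values the count is scaled to a total of its library, and in the deposited FPKM values also to the length of the model. FastQC, HISAT2, featureCounts, edgeR and the build hg38 are named in the submitters' processing notes. Annotation and strand setting are not given in the sources used here. The series' design text gives 2 biological replicates per condition, each analysed in duplicate, and the labels show 2 libraries per group.

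Models on chromosomes 1 to 22, X and Y were used, and 1814 symbols at several loci were left out. Counts of 1 model per gene, the one with the most fragments, were tested in edgeR 4.0.16 (R 4.3.3) with TMM scaling, filterByExpr and 1 fit of 12 libraries with a mean per group; the tests were two-sided, with Benjamini-Hochberg adjustment over the 15682 genes tested. The procedure was tested on simulated data. The biological coefficient of variation was 4.22%, and totals of 16950119 to 24864977 fragments limit the precision; intervals are the model's own, and a count of 0 allows 3 fragments. Alternatives used DESeq2 1.42.0, limma 3.58.1 on log2(FPKM + 1), other scalings, filters and models, each line alone, a replicate block, the deduplicated table of PC3 siControl replicate 2, and each library left out in turn.

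The receptors, the pathway lists and the tests were chosen with earlier results of these data known, the fall of IL13RA2 after siLARP4A in MG63 among them. Named beside the receptors were list genes with an adjusted p under 0.05 and an absolute log2 change of at least 1 against siControl, and ligands or shared chains with a mean of at least 1 FPKM in a group. Other genes named, among them the STAT genes, PTPN11, SOCS3, MYD88, IL27RA, CD68 and CDH5, were picked after their values were seen. Some genes of the lists are counted but not reported here by name.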

Additional observations from a re-analysis of the deposited data

Results flagged for a closer look

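The effect of an siRNA was called as different between PC3 and MG63 where edgeR's interaction term had an adjusted p under 0.05. This held for siLARP4A, siLARP4B or both in 4 of the receptor genes and 14 of the named ligands, partner chains and pathway genes. The share of all genes called for either siRNA was not computed, so these 2 counts have no share beside them. For siLARP4A alone, 2 of 9 receptors were higher and 1 lower, where 11.2% of all tested genes were called (5.74% higher, 5.46% lower). For siLARP4B alone, 1 was higher and 1 lower, where 26.8% were called (12.4% higher, 14.4% lower). Some of the 14 were named for a log2 change of at least 1 within a line in the same libraries. Such a choice favours a difference between lines, so the 14 are listed with no test of their number. Values are log2 differences, PC3 minus MG63. The targets themselves differed in this way, LARP4 for siLARP4A (-1.02) and LARP4B for siLARP4B (-0.75). The part of knockdown depth in the differences below was not tested. Among the receptors, IL13RA2 (1.15), IL6R (0.48) and LIFR (-0.68) differed for siLARP4A, and IL13RA1 (0.24) and LIFR (-0.64) for siLARP4B. In LIFR the sign of the siLARP4A change also differed, from -0.40 in PC3 to 0.28 in MG63, where it was not called.

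Among the ligands, LIF differed for siLARP4A (-0.57) and siLARP4B (-0.49), IL1B for siLARP4B (0.93), CLCF1 for siLARP4B (0.62) and IL1RN for siLARP4B (3.88), the last on at most 18 fragments per library. Of the partner chains, IL1RAP differed for siLARP4A (0.67) and, in the other direction, for siLARP4B (-0.59), and SIGIRR for siLARP4B (1.20). The protease ADAM10 differed for siLARP4A (0.27) and siLARP4B (-0.37).

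Of the target genes and inhibitors, BIRC3 (-1.48), CXCL1 (-0.85), MMP3 (2.14), TGM2 (1.31) and POSTN (-2.27) differed for siLARP4A. For siLARP4B, BIRC3 (1.00), CXCL1 (-1.09), ICAM1 (0.86), MMP3 (1.32), SOCS2 (0.91) and TGM2 (-0.48) differed. POSTN and IL1RN had at most 15 fragments per library in PC3, and MMP3 had 8 to 11.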

How the results depend on the processing

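There were 10 alternatives for each of the 6 comparisons within a line and 9 for each of the 3 between lines. Leaving out each library in turn counts as 1 of these. With 2 libraries per group it leaves a group with 1, which is assumed to vary like the others and which lets the filter keep more genes. Of the receptors' log2 values, 903 kept direction and side of the threshold when a library was left out, 31 changed sign, 16 became called and 22 lost the call; under the other alternatives these were 675, 15, 4 and 8. The cause was not tested. The receptor count after siLARP4B in PC3 was 5 with no filter against 3, and 1 to 5 over the left-out libraries. The count for the difference between lines after siLARP4B was 1 with DESeq2 size factors, in DESeq2, with no filter and with the deduplicated table against 2, and 1 to 4 over the left-out libraries. The replicate numbers do not pair the samples (correlations of deviations -0.03 to 0.05), and with a replicate block the counts were 7, 5, 3 and 6 for siLARP4A in PC3 and MG63 and siLARP4B in PC3 and MG63, as without it. A fit of each line alone gives no difference between lines.

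All sign changes were in values that passed no test. IL1R1 in PC3 after siLARP4A was -0.00556 in limma and -0.00549 in PC3 alone, IL11RA in PC3 between siLARP4A and siLARP4B was -0.00739 in limma and -0.069 with the longest model, and IL4R for siLARP4B between lines was 0.010 in limma. For siLARP4A between lines, IL11RA was -0.0212 with DESeq2 size factors, -0.0262 in DESeq2, -0.0466 with no filter, -0.0485 with a mean of 1 FPKM as filter, -0.0176 with the replicate block and -0.0567 with the deduplicated table. IL6ST there was -0.0106, -0.0123, -0.0247 and -0.0122 with no filter, the FPKM filter, limma and the deduplicated table.

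Over the left-out libraries the ranges that crossed 0 were, in PC3 after siLARP4A, -0.34 to 0.40 for IL1R1 and -0.27 to 0.052 for IL11RA. After siLARP4B they were -0.054 to 0.63 for IL1R1 and -0.26 to 0.014 for IL11RA in PC3, and -0.11 to 0.0014 for IL6ST in MG63. Between the siRNAs in PC3 they were -0.60 to 0.0080 for IL1R1 and -0.16 to 0.18 for IL11RA. Between lines after siLARP4A they were -0.12 to 0.17 for IL6ST, -0.013 to 0.26 for OSMR, -0.072 to 0.68 for IL1R1 and -0.19 to 0.14 for IL11RA, and after siLARP4B -0.23 to 0.033 for IL4R. At 18 to 36 fragments per PC3 library, IL1R1 is limited by depth.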

Other observations

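The genes whose pattern was most like that of IL13RA2 were sought among 13535 tested genes with a mean of at least 1 FPKM in a group, by Pearson's r over the 12 libraries of log2 CPM centred within each line. The 5 most alike were INO80B (r = 0.973), ETFDH (0.970), DKK1 (0.955), STMP1 (0.948) and NLGN2 (0.947). The 12 points share the siRNA groups and the libraries, so r is a description of these libraries. They were chosen for following IL13RA2 in these libraries, so their changes are given with no test. After siLARP4A in MG63, DKK1, a secreted inhibitor of Wnt signalling, went from 95.8 to 57.5 FPKM on average and INO80B from 21.2 to 14.7. In PC3 the log2 changes after siLARP4A were -0.16 for DKK1, -0.22 for NLGN2, -0.14 for INO80B, -0.14 for ETFDH and -0.13 for STMP1.

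Among the receptors, IL6ST (r = -0.77) and IL13RA1 (-0.74) ran most nearly opposite to IL13RA2 by the same measure. IL4R (-0.59), IL6R (-0.41), OSMR (-0.38), LIFR (-0.20), IL11RA (0.02) and IL1R1 (0.34) followed. Within MG63 and within PC3 alone, r was -0.86 and -0.77 for IL6ST and -0.74 and -0.85 for IL13RA1. For others the lines differed more, with 0.83 and 0.08 for IL1R1, -0.60 and 0.28 for LIFR and -0.33 and -0.76 for IL6R.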
